A study of Danio rerio with 12 samples.

Results

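Whole zebrafish embryos lacking functional tet2 and tet3 were compared with their siblings at 25 hours post fertilisation (hpf). All libraries of this stage were used, 6 of the 12 in the series, and every gene of the count table was considered without selection by its values (25680 genes, of which 17831 had enough counts to be tested). The 3 double mutant (DM) libraries came from embryos with inactivating mutations in both genes. The 3 sibling libraries came from a mixture of wild type animals and heterozygotes for tet2, tet3 or both, so the comparison is not with a uniform wild type. All 6 carry the strain background AB in the labels, which also state that wild type embryos of the study came from AB and TU crosses, and no treatment was given. Embryos were staged by morphology, RNA was taken from the whole body with the RNeasy Mini Kit, and libraries were prepared by the TruSeq RNA protocol (version 2 of the kit). The number of embryos behind a library and the alleles are not given in the labels used here.

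TET enzymes are dioxygenases that oxidise 5-methylcytosine in DNA to 5-hydroxymethylcytosine and further products, a route by which methylation at enhancers and promoters can be removed. Vertebrates have several TET genes with overlapping roles, and in zebrafish the combined loss of tet2 and tet3 is known for defects of blood stem cells and of the retina. At 25 hpf the body plan is laid out: the brain is regionalised, the optic cups and lens are formed, neural crest cells migrate, the heart beats and the first neurons extend axons.

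Library totals lay between 8341467 and 12440521 counts in DM and between 8883844 and 16700992 in siblings, with 21985 to 22601 genes detected per library. Levels are given as CPM, the counts divided by the library size after TMM normalisation, and a count of 0 allows up to 0.172 to 0.388 CPM (3 counts, counting error only). The labels number the libraries 1 to 3 in each group. Libraries of the same number departed from the means of their groups in similar ways for numbers 1 and 2 (correlation across genes 0.847 and 0.672). For number 3 the correlation was 0.270, below the 0.512 between DM 3 and sibling 2. Principal component 1, with 69.2% of the variance, gave scores of -38.2, 51.5 and 54.2 for DM and -66.6, 22.5 and -23.5 for siblings. The labels state no pairing. The number was kept as a block by a rule applied to these same counts, a correlation above 0.1 in each pair. Separate clutches are not named in the labels. The p-values with the block rest on how far the differences between equally numbered libraries vary, and the spread between numbers is taken out. Those without the block rest on the spread among the libraries of each group. Part of either spread may be technical. The test used, edgeR, also draws the variance of each gene toward a trend over all genes. Its SE and p-values are therefore not measures of the spread of a single gene over the 3 pairs. Of 43 marker genes for 14 tissues, 42 were counted in every library.

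Transcripts of the mutated genes were present in every DM library, and counts per gene cannot show whether a transcript encodes an active protein. For tet2, DM embryos had 144, 105 and 92.6 CPM, against 115, 80.7 and 107 CPM in siblings (replicates 1 to 3). For tet3 the DM levels were 87.2, 37.8 and 40.3 CPM and the sibling levels 90.9, 50.3 and 70.0 CPM. The groups overlapped for both genes. The log2 fold change (DM over sibling, with its standard error, SE) was 0.17 (SE 0.16, adjusted p = 0.471) for tet2 and -0.41 (SE 0.16, adjusted p = 0.0829) for tet3. The intact paralog tet1 stood at -0.35 (SE 0.16, adjusted p = 0.129). Without the libraries numbered 3, tet2 passed the test at 0.35 (adjusted p = 0.00113).

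With a false discovery rate (FDR) of 0.05, 2453 of the 17831 genes passed the blocked edgeR test (13.8%). Of these, 779 (4.37% of tested genes) were higher in DM and 1674 (9.39%) lower, so 31.8% of the calls were higher. That split depends on the scaling: with upper quartile factors 45.2% of the calls were higher. The same test without the block called 0 genes, with 585 at an unadjusted p under 0.05, limma-voom without the block also called 0, and DESeq2 without the block called 39. Every fold change and adjusted p below is from the blocked test unless another is named, and none of these genes passed the edgeR test without the block. A stricter set of 386 genes (2.16% of those tested, 67 higher and 319 lower) passed the blocked test in full, with each numbered pair left out in turn and with the trend with gene span removed, and changed in the same direction in all 3 pairs. These are called stable below, so their agreement in sign over the 3 pairs is part of the choice and adds no support. By direction the stable genes were 0.376% and 1.79% of tested genes. Of them 116 had groups that did not overlap, 39 higher and 77 lower in DM. Over all tested genes 6.80% had groups that did not overlap, 3.21% higher and 3.59% lower in DM. The gene lists below were chosen with earlier results of these data known, so their shares against all tested genes describe and test nothing.

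**Figure D1:**
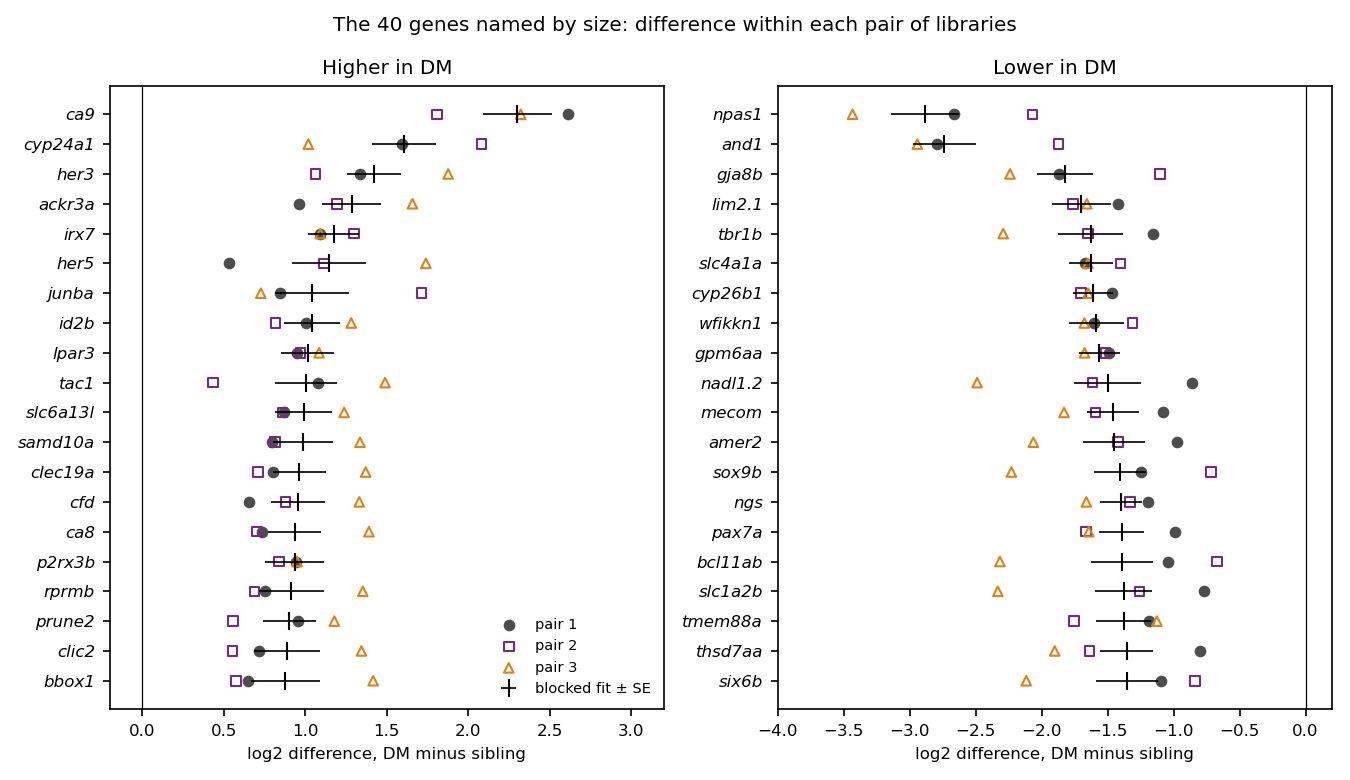
Difference between DM and sibling libraries (log2 scale) within each pair of equal number for the 20 most increased and the 20 most decreased stable genes among those with a symbol and a mean of at least 5 CPM (crystallin, mip and melanin genes left out), with the blocked fold change and its SE. All 40 genes lie on 1 side of 0 in all 3 pairs because the choice of stable genes requires it. Pair 3 often lies farthest from 0.

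Lens and pigment genes aside, ca9 rose most among the stable genes with a symbol and a mean of at least 5 CPM (ENSDARG00000102300, chromosome 10, positions 6413482–6453356, GRCz10). This gene encodes a membrane carbonic anhydrase and is a standard target of the hypoxia response. It was counted at 10.4, 13.1 and 14.4 CPM in DM embryos and at 1.55, 3.61 and 2.74 CPM in siblings. Every DM library lay well above every sibling library, with a log2 fold change of 2.3 (SE 0.21, adjusted p = 5.58e-08). Of 39 tested genes of the hypoxia list, ca9 was the 1 called higher (2.56%, against 4.37% of all tested genes). The list had 3 lower (7.69%, against 9.39%), egln2 at -1.02, hif1ab at -0.54 and kdm3b at -0.51, none of them stable. With the span trend removed 3 were higher and 2 lower, since pfkfb4b (0.42, adjusted p = 0.0655) and ldha (0.44, adjusted p = 0.0749) were then called and kdm3b was not. The list median was 0.05, against 0.02 for all tested genes. A related gene outside that list, ca8, which encodes a carbonic anhydrase-like protein, had 27.9, 38.2 and 38.5 CPM in DM and 16.7, 23.4 and 14.6 CPM in siblings, without overlap (0.93, SE 0.16, adjusted p = 0.000718).

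A gene of vitamin D breakdown also rose. The gene for the 24-hydroxylase that inactivates vitamin D, cyp24a1 (ENSDARG00000103277, chromosome 6, positions 55869049–55881711), had 12.1, 17.5 and 12.4 CPM in DM and 3.90, 4.0 and 6.02 CPM in siblings. The DM libraries all lay above the siblings (1.61, SE 0.20, adjusted p = 7.98e-06). The vitamin D receptor gene vdra did not pass the test (-0.57, adjusted p = 0.0915), but was called lower with the span trend removed (-0.75, adjusted p = 0.0416). In the list of steroid and vitamin D responses 2 of 16 tested members were higher (12.5%, against 4.37% of all tested genes) and 1 was lower (6.25%, against 9.39%). Besides cyp24a1 these were hsd20b2, a steroid dehydrogenase gene, at 0.68, and pck1, a gene of glucose synthesis, at -0.76. Neither was stable.

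**Figure D2:**
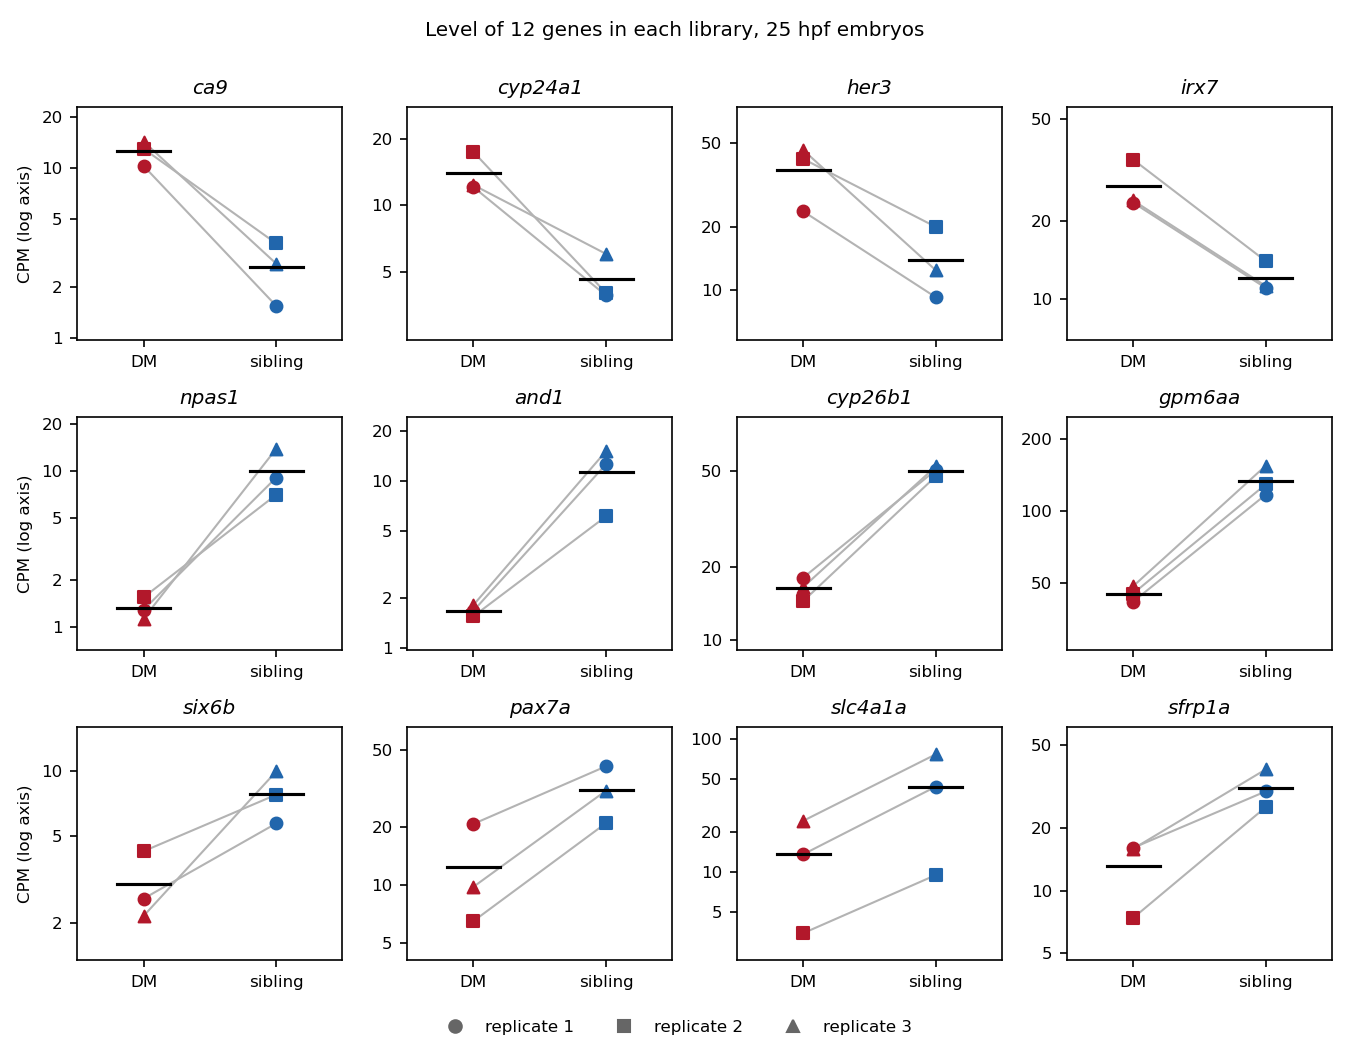
Level of 12 genes in each library (CPM, log axis), DM left of sibling, with lines joining libraries of equal number and a bar at the group mean. For ca9, cyp24a1, her3 and irx7 all DM points lie above all sibling points, and for npas1, and1, cyp26b1, gpm6aa, six6b, pax7a and sfrp1a they lie below. For slc4a1a the ranges overlap while every pair falls, which its choice as a stable gene requires.

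A further rise was in the hairy-related gene her3 (ENSDARG00000076857, chromosome 8, positions 46651083–46652325), a basic helix-loop-helix repressor of the neural plate, which reached 23.7, 41.9 and 46.2 CPM in DM, against 9.28, 19.99 and 12.5 CPM in siblings. The lowest DM library stood above the highest sibling library (1.42, SE 0.17, adjusted p = 3.57e-06). Its relative her5, which keeps the midbrain-hindbrain boundary free of neurons, had 3.73, 10.4 and 8.51 CPM in DM and 2.52, 4.69 and 2.43 CPM in siblings. These ranges overlapped, and the gene was stable (1.15, SE 0.23, adjusted p = 0.00272). The neighbouring gene her11 rose by 1.17 (adjusted p = 0.00459), and id2b, which encodes an inhibitor of helix-loop-helix factors, by 1.04 (adjusted p = 0.00041).

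The Iroquois homeobox gene irx7 (ENSDARG00000002601, chromosome 23, positions 37884208–37885532) had 23.6, 34.7 and 24.1 CPM in DM and 11, 14.0 and 11.2 CPM in siblings. The groups were far apart, and the pairs gave similar differences (1.17, SE 0.16, adjusted p = 2.64e-05). The engrailed gene eng2b of the midbrain-hindbrain boundary stood at 58.4, 105 and 114 CPM in DM and at 34.6, 67.0 and 47.7 CPM in siblings. DM was higher in every pair (0.88, SE 0.16, adjusted p = 0.0012), although the adjusted p was 0.0527 without pair 1. The hindbrain segment gene egr2b rose by 0.88 (adjusted p = 0.00514; 0.114 without pair 1).

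Other increased genes had varied roles. For ackr3a, a scavenger receptor for the chemokine Cxcl12, DM libraries had 8.98, 16.1 and 17 CPM and siblings 4.53, 6.92 and 5.28 CPM. No sibling reached the lowest DM library (1.28, SE 0.18, adjusted p = 6.51e-05). The lysophosphatidic acid receptor gene lpar3 (1.01), the tachykinin precursor gene tac1 (1.00), the AP-1 subunit gene junba (1.04), the complement factor D gene cfd (0.96), the C-type lectin gene clec19a (0.96), the carnitine synthesis gene bbox1 (0.88) and the chloride channel-related gene clic2 (0.89) were all stable, as were slc6a13l, samd10a, rprmb and prune2 (0.90 to 0.99). The ATP-gated channel gene p2rx3b of sensory neurons had 11.2, 8.93 and 11.6 CPM in DM and 5.73, 4.92 and 5.91 CPM in siblings. Again no values overlapped (0.93, SE 0.18, adjusted p = 0.00206). Its paralog p2rx3a rose by 0.84 (adjusted p = 0.00346; 0.0857 without pair 1). The sensory and autonomic neuron list, which holds both, had 2 of 16 tested genes higher (12.5%, against 4.37% of all tested genes). The 2 lower genes (12.5%, against 9.39%) were phox2a (-0.71) and ntrk2a (-0.59), and the list median was 0.00430. Of these 4, p2rx3b was stable. Of the 20 stable increased genes with the largest fold changes among those with a symbol and a mean of at least 5 CPM, 12 had groups that did not overlap. Over all tested genes 3.21% were higher in DM without overlap. The choice of stable genes by their values favours such separation, so the count tests nothing.

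Among losses outside the lens, a large one was in npas1 (ENSDARG00000015876, chromosome 15, positions 8448640–8541484), a helix-loop-helix PAS factor known from inhibitory neurons of the mouse forebrain. DM embryos had 1.29, 1.55 and 1.13 CPM, and siblings had 9.11, 7.07 and 13.9 CPM. No DM library came near the lowest sibling (-2.89, SE 0.26, adjusted p = 3.79e-08). In the list of forebrain inhibitory neuron genes 4 of 16 tested members were lower (25.0%, against 9.39% of all tested genes) and 0 higher, with a median of -0.47. The proneural gene ascl1a fell by 0.83 (adjusted p = 0.00346; 0.0594 without pair 1), the homeobox gene arxa by 0.85 (adjusted p = 0.0091) and the zinc finger gene sp8a by 0.46 (adjusted p = 0.0432; 0.325 without pair 1). The excitatory forebrain factor gene tbr1b also fell: it had 4.72, 1.04 and 1.59 CPM in DM and 10.7, 3.61 and 8.45 CPM in siblings. Libraries numbered 1 were the highest in both groups, and the ranges overlapped. The gene was stable (-1.63, SE 0.25, adjusted p = 0.00015).

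Factors of the eye field and retina were often lower. The list has 21 genes in these data, of which 17 were tested. Of these, 8 were lower (47.1%, against 9.39% of all tested genes) and 0 higher (against 4.37%). The median was -0.64, and 6 members were stable. The homeobox gene vsx1 of the retina had 1.6, 1.81 and 1.36 CPM in DM and 4.30, 5.77 and 5.28 CPM in siblings. The DM values were close to each other and all below the siblings (-1.65, SE 0.26, adjusted p = 0.000264). The eye field gene six6b had 2.59, 4.27 and 2.16 CPM in DM and 5.73, 7.76 and 9.92 CPM in siblings, without overlap (-1.35, SE 0.24, adjusted p = 0.000815). Also lower were rx1 (-1.30), the ventral eye genes vax2 (-1.28) and vax1 (-0.69), lhx2b (-0.89) and six3b (-0.64), of which vax1 and six3b were not called without pair 1 (adjusted p 0.14 and 0.146). In bulk embryos fewer cells of a type and less RNA per cell cannot be told apart.

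Lens genes other than crystallins were few in number but strongly lower: 7 of 15 in the table passed the filter on low counts. Of these, 4 were lower (57.1%, against 9.39% of all tested genes). The filter can keep a gene through its sibling libraries alone. This was so for lim2.3, with 0.305, 0.388 and 0.340 CPM in DM and 1.26, 1.54 and 1.48 CPM in siblings. Such a filter favours genes that are lower in DM, so the share tests nothing. The lens fibre membrane gene lim2.4 had 0.533, 1.04 and 0.567 CPM in DM and 2.58, 5.53 and 11.4 CPM in siblings. All DM libraries lay below all siblings, at levels near the limit for a count of 0 (-3.05, SE 0.34, adjusted p = 1.39e-06). The lens connexin gene gja8b, whose channels join fibre cells, had 2.66, 4.27 and 4.43 CPM in DM and 9.38 to 21.5 CPM in siblings, also apart (-1.82, SE 0.21, adjusted p = 2.91e-06). The relatives lim2.1 (-1.70) and lim2.3 (-2.02) were lower too, and lim2.3 was not called without pair 1 (adjusted p = 0.0644).

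Elsewhere in the brain the losses were smaller and mixed. Of 32 tested regional transcription factor genes, 9 were lower (28.1%, against 9.39% of all tested genes), by 0.50 to 1.63 on the log2 scale. The 3 named above were higher (9.38%, against 4.37%). The lower ones included pax2a of the midbrain-hindbrain boundary and optic stalk (-0.88, adjusted p = 0.00208), irx1a (-0.88, adjusted p = 0.00278) and the telencephalon gene foxg1a (-0.67, adjusted p = 0.0136; 0.19 without pair 1). In the hypothalamus list 1 of 9 tested genes was higher (11.1%, against 4.37%), otpb (0.57). Another 2 were lower (22.2%, against 9.39%), its paralog otpa (-0.70) and sim1a. None of them was stable. No motor neuron gene of 11 tested and no neurotransmitter receptor gene of 27 tested was called. Of 28 voltage-gated channel genes 1 was higher (3.57%), kcnq1 (1.18), and 2 were lower (7.14%), scn1lab (-0.77) and cacna1g (-0.75). Both shares were below those of all tested genes. None of the 3 genes held with each pair left out in turn.

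General neuronal genes moved unevenly. Of 40 tested, 16 were lower (40%, against 9.39% of all tested genes) and 2 higher (5.0%, against 4.37%). The median was -0.35, or -0.23 with the span trend removed. The membrane glycoprotein gene gpm6aa (ENSDARG00000055455, chromosome 14, positions 36008235–36038180) had 41.6, 45.1 and 48.3 CPM in DM and 117, 129 and 155 CPM in siblings. The pairs gave nearly equal differences (-1.56, SE 0.16, adjusted p = 2.58e-07). The adhesion molecule genes nadl1.2 (-1.50), ncam1a (-0.93) and ncam1b (-0.77) and the neurofilament gene nefmb (-0.89) were lower and stable, whereas the tubulin-binding gene stmn1b was higher (0.54, adjusted p = 0.0267; 0.331 without pair 1), as was nrxn3a (0.76; 0.193 without pair 1). The sum of the 3 neuron markers elavl3, stmn1b and gap43 was 314, 260 and 301 CPM in DM and 320, 279 and 341 CPM in siblings.

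Axon guidance genes encode ligands and receptors that steer growing axons. Of 43 tested, 15 were lower (34.9%, against 9.39% of all tested genes) and 0 higher (against 4.37%). The median span of the list was 99.7 kb, far above the 17.8 kb of all tested genes. With the span trend removed 6 were lower and 1 was higher. Stable members were the Eph receptor genes ephb2b (-1.06) and epha4a (-0.98), sema3fa (-0.81), robo3 (-0.80) and plxna4 (-0.74). For ephb2b the levels were 29.0, 13.3 and 14.8 CPM in DM and 51.6, 24.4 and 42.0 CPM in siblings. Libraries numbered 1 were high in both groups, and the ranges overlapped.

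Of 24 tested radial glia and neural progenitor genes 6 were lower (25.0%, against 9.39% of all tested genes) and 1 higher (4.17%, against 4.37%). The glutamate transporter gene slc1a2b had 15.8, 3.50 and 4.54 CPM in DM and 27.0, 8.61 and 23.5 CPM in siblings, and the groups overlapped. It was stable (-1.38, SE 0.22, adjusted p = 0.000242). The receptor gene notch3 fell by 0.99 (adjusted p = 0.00134) and was stable. The progenitor gene sox2 fell by 0.61, with an adjusted p of 0.0144 in full and 0.16 without pair 1. The glutamine synthetase gene glulb was higher (0.50, adjusted p = 0.0407; 0.365 without pair 1).

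Of 21 tested neural crest genes 8 were lower (38.1%, against 9.39% of all tested genes) and 0 higher (against 4.37%). The list median was -0.45. The paired box gene pax7a of crest and dorsal neural tube (ENSDARG00000100398, chromosome 11, positions 40652295–40787221) had 20.7, 6.47 and 9.76 CPM in DM and 41.3, 20.9 and 30.8 CPM in siblings. The highest DM library lay just below the lowest sibling (-1.39, SE 0.17, adjusted p = 7.98e-06). For sox9b, a factor of crest and cartilage, DM had 17, 11 and 8.74 CPM and siblings 40.6, 18.2 and 41.6 CPM, also apart (-1.41, SE 0.20, adjusted p = 6.13e-05). The fish-specific crest marker crestin was lower by 1.25 (adjusted p = 0.0026). The pigment lineage factor mitfa fell by 0.66 and sox10 by 0.50, and both lost the call without pair 1 (adjusted p 0.133 and 0.191). Among 21 iridophore and xanthophore genes 2 were lower (9.52%) and 1 higher (4.76%), near the shares over all tested genes. The lower ones were pnp4a (-0.89) and tfec (-0.58) and the higher one fhl2a (0.61), none of them stable. With the span trend removed 3 were higher and 1 lower, and the list median was 0.04, against -0.06 before.

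The fin fold held a focal change. The actinodin gene and1, which encodes a protein of the fin fibres (ENSDARG00000088514, chromosome 24, positions 26134462–26138318), had 1.67, 1.55 and 1.82 CPM in DM and 12.6, 6.15 and 15 CPM in siblings. Its paralog and2 had 0.228, 0.388 and 1.13 CPM in DM and 3.95, 1.31 and 5.38 CPM in siblings. For both genes all DM libraries lay below all siblings, at -2.74 (SE 0.24, adjusted p = 2.57e-08) for and1 and -2.73 (SE 0.38, adjusted p = 6.13e-05) for and2. Of 23 tested fin fold genes 5 were lower (21.7%, against 9.39% of all tested genes) and 1 higher (4.35%, against 4.37%). The other lower ones were the Fras/Frem adhesion genes frem2a (-0.64), frem1a (-0.46) and frem3 (-0.52), and hoxd12a was higher (0.63). None of these 4 was called with the span trend removed, where 5 list members were lower: and1, and2, dlx2a, sp8b and sp9 (dlx2a at -0.49, sp8b at -0.42 and sp9 at -0.56 before removal, not called).

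Of 24 tested retinoic acid genes 1 was higher (4.17%, against 4.37% of all tested genes) and 2 were lower (8.33%, against 9.39%). The gene cyp26b1 (ENSDARG00000077121, chromosome 7, positions 25052585–25077440), which encodes a hydroxylase that degrades retinoic acid, had 18.1, 14.5 and 16.6 CPM in DM and 50.5, 47.6 and 52.3 CPM in siblings. Values within each group were close, and the gap was about the same in the 3 pairs (-1.61, SE 0.15, adjusted p = 1.32e-07). Another degrading enzyme gene, cyp26a1, was higher (0.52, adjusted p = 0.0233; 0.271 without pair 1), and the receptor gene raraa was lower (-0.55, adjusted p = 0.0237; 0.131 without pair 1). The remaining 21 of 24 tested members were not called, and the list median was -0.15.

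**Figure D3:**
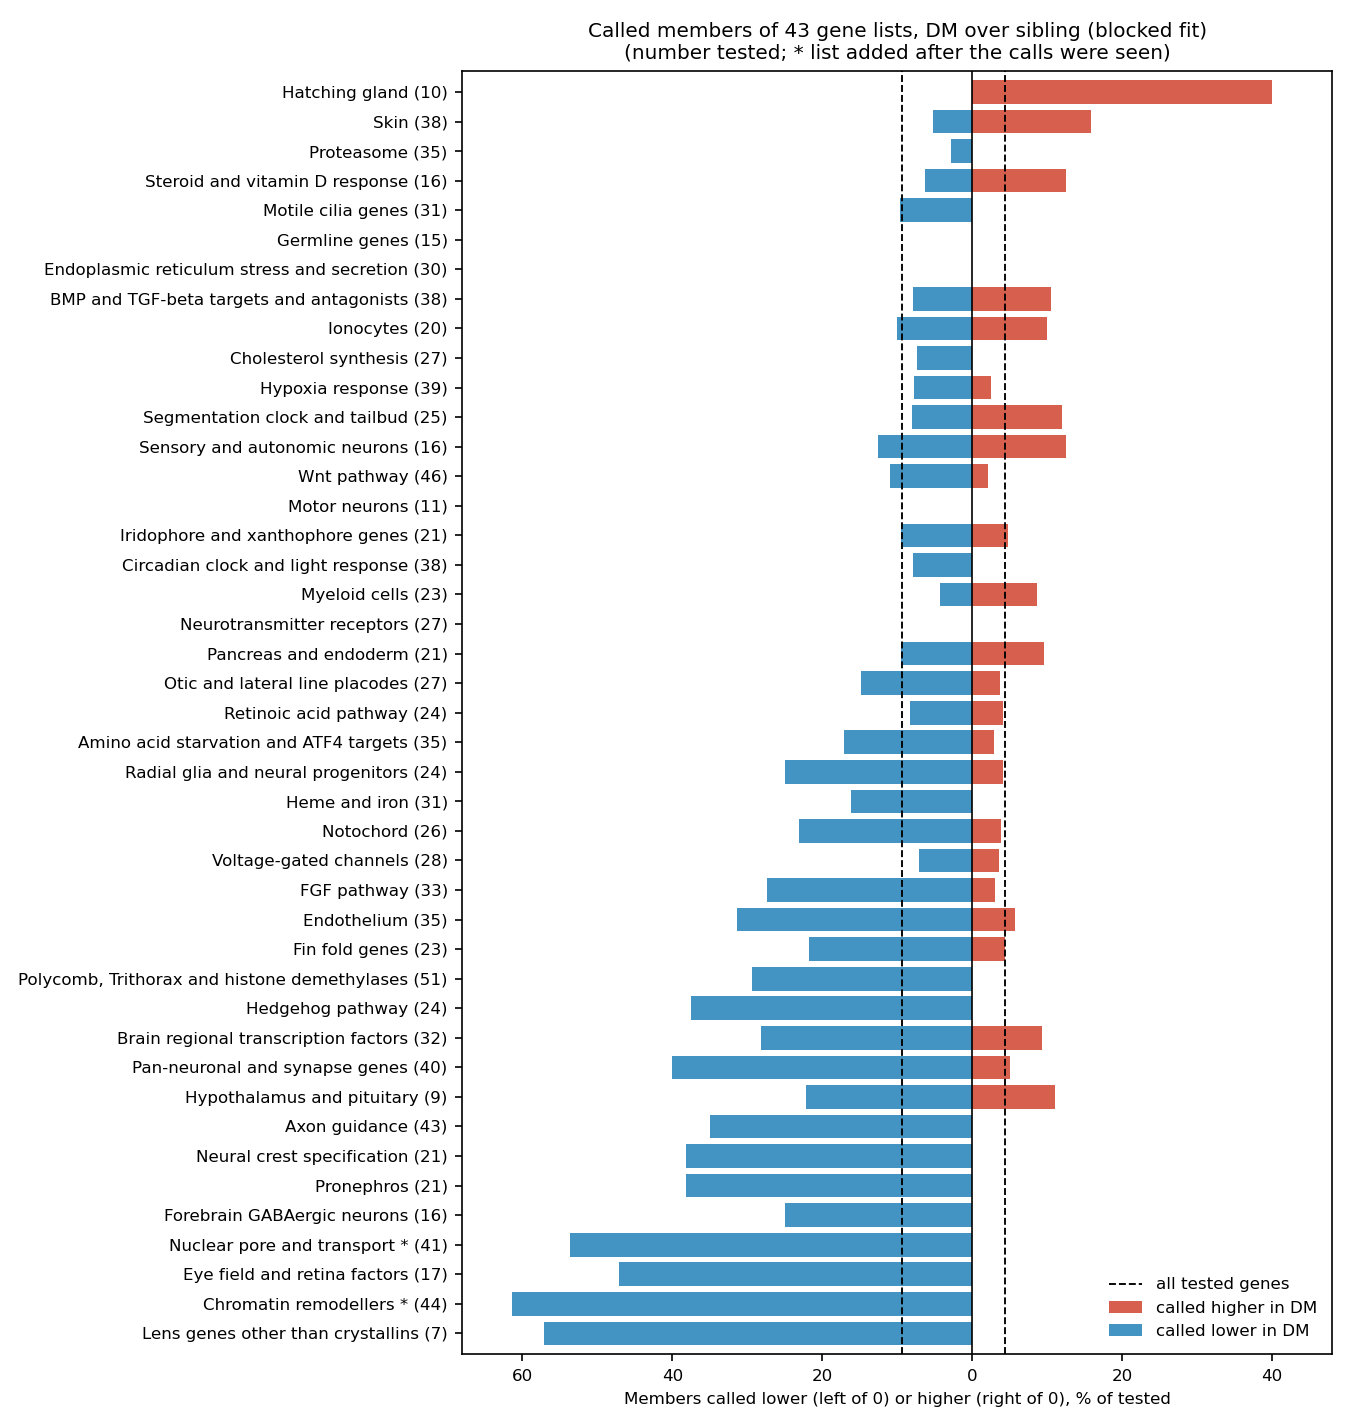
Share of tested members called higher (right) or lower (left) in DM for 43 gene lists, ordered by their median log2 fold change, with dashed lines at the shares over all tested genes (4.37% higher, 9.39% lower). The chromatin remodeller (61.4%), lens (57.1%), nuclear pore (53.7%) and eye field (47.1%) lists reach farthest to the left. Of these, the chromatin remodeller and nuclear pore lists (marked *) were drawn up after the calls were seen, so their shares test nothing. The hatching gland list, with 4 of 10 members, reaches farthest to the right.

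Hedgehog signalling patterns the ventral neural tube and somites. Of 24 tested genes of its list 9 were lower (37.5%, against 9.39% of all tested genes) and 0 higher (against 4.37%). The median was -0.33 and stayed at -0.33 with the span trend removed, where 5 were called lower. The calls included the ligands shha (-0.57) and shhb (-0.63), the receptor ptch1 (ENSDARG00000016404, -0.71), the co-receptor boc (-0.61), the effectors gli1 (-0.58), gli2a (-0.56) and gli2b (-0.61), and foxj1a (-0.79). Among them only ptch1 was stable, with 39.4, 19.4 and 19.2 CPM in DM and 53.4, 29.8 and 41.8 CPM in siblings. The groups overlapped for ptch1. Of 33 tested FGF pathway genes 9 were lower (27.3%, against 9.39% of all tested genes) and fgf8b was higher (0.67). The share higher was 3.03%, against 4.37% of all tested genes. The lower ones were led by the receptor gene fgfr1b (-0.80, adjusted p = 0.00506, stable), the inhibitor genes spry1 (-0.92) and il17rd (-0.72) and the target genes etv5b (-0.67) and etv5a (-0.57).

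Of 46 Wnt genes 5 were lower (10.9%, near the background share), with a median of -0.02, and 3 of the lower ones were stable. The secreted antagonist gene sfrp1a had 16.1, 7.38 and 15.9 CPM in DM and 30.03, 25.2 and 38.3 CPM in siblings, without overlap (-1.27, SE 0.17, adjusted p = 2.86e-05). The nuclear effector genes tcf7l2 (-1.20, adjusted p = 6.28e-05) and tcf7l1b (-0.95, adjusted p = 0.000972) were lower and stable. The antagonist gene dkk1a was higher, at 3.65, 5.31 and 4.43 CPM in DM and 2.06, 2.31 and 1.69 CPM in siblings (1.1, SE 0.25, adjusted p = 0.00615). Outside that list amer2, a regulator of the Wnt destruction complex, fell by 1.45 (adjusted p = 0.000317).

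BMP and TGF-beta targets and antagonists were the signalling list with more genes higher (4 of 38) than lower (3). These were 10.5% and 7.89%, against 4.37% and 9.39% of all tested genes. Among the higher ones the antagonist gene nog3 had 3.58, 6.34 and 4.31 CPM in DM and 1.26, 2.08 and 2.11 CPM in siblings, apart from each other (1.40, SE 0.26, adjusted p = 0.00127). The target gene id2b was also stable, whereas the ligand gene bmp5 (0.79) and the antagonist gene fsta (0.79) were not called without pair 1 (adjusted p 0.0943 and 0.19). Lower were nog2 (-0.67), fstb (-0.67) and tgfbi (-0.48), so that paralogs of noggin and follistatin went opposite ways. The growth factor antagonist gene wfikkn1, not in the list, had 3.50, 3.37 and 2.72 CPM in DM and 11, 8.61 and 9.08 CPM in siblings (-1.58, SE 0.21, adjusted p = 1.9e-05). In the tailbud and segmentation list 3 of 25 genes were higher (12%, against 4.37%). They were the posterior homeobox gene cdx4 (0.82, stable), her11 (stable) and mespaa (1.44; adjusted p = 0.00937, and 0.0775 without pair 1). The lower genes were nrarpa (-0.53) and dld (-0.50), 8.0% of the list against 9.39%. With the span trend removed 3 were higher and 6 lower, and the list median was -0.15, against 0.03 before.

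The pronephros, the embryonic kidney, had 8 of 21 tested genes lower (38.1%, against 9.39% of all tested genes) and 0 higher (against 4.37%). Its list median was -0.45. The patterning genes pax2a (-0.88), lhx1a (-1.02) and hnf1ba (-0.87) and the anion exchanger gene slc4a2a (-1.13) were stable. The gene pax8 (-0.95, adjusted p = 0.00961, and 0.191 without pair 1) was not. Neither were lrp2a, slc20a1b and slc12a3 (-0.56 to -0.66). For lhx1a DM had 5.86, 2.46 and 2.72 CPM and siblings 8.94, 5.61 and 8.02 CPM, which overlapped. The otic list had 4 of 27 lower (14.8%, against 9.39%). Its 1 higher gene (3.7%, against 4.37%) was the otolith gene stm (0.61), and none of these was stable.

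Vascular endothelium had 11 of 35 tested genes lower (31.4%, against 9.39% of all tested genes) and 2 higher (5.71%, against 4.37%). The list median was -0.30. Stable members were tmem88a (-1.38), the guidance receptor gene robo4 (-1.12), notch1b (-1.03) and the scavenger receptor gene stab1 (-0.79). For tmem88a, which encodes a Wnt inhibitor of early blood and vessel precursors, DM had 3.96, 2.98 and 3.29 CPM and siblings 9.23, 10.5 and 7.39 CPM, apart in all libraries. The regulator genes hey2 (0.79, adjusted p = 0.00209; 0.086 without pair 1) and tal1 (0.51, adjusted p = 0.0345; 0.115 without pair 1) were higher. The endothelial markers kdrl, cdh5 and fli1a summed to 135, 95.9 and 98.4 CPM in DM and to 167, 143 and 136 CPM in siblings.

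The red cell anion exchanger gene slc4a1a (ENSDARG00000012881, chromosome 3, positions 19916121–19944785) had 13.6, 3.50 and 24.3 CPM in DM and 43.8, 9.53 and 76.5 CPM in siblings. Libraries of both groups varied widely with their number, and each pair fell by a similar amount (-1.63, SE 0.16, adjusted p = 2.8e-07). Of 31 heme and iron genes 5 were lower (16.1%, against 9.39% of all tested genes) and 0 higher (against 4.37%). The lower ones besides slc4a1a were the transferrin receptor gene tfr1a (-1.08), the membrane skeleton genes sptb (-0.72) and epb41b (-0.72) and the heme synthesis gene alas2 (-0.52). Without pair 1 tfr1a, sptb, epb41b and alas2 were not called (adjusted p 0.0687 to 0.46). The red cell markers hbbe3, alas2 and gata1a summed to 475, 650 and 1140 CPM in DM and to 407, 687 and 647 CPM in siblings. The stem cell and kidney factor gene mecom had 7.16, 2.72 and 3.29 CPM in DM and 15.4, 8.53 and 12.1 CPM in siblings, without overlap (-1.46, SE 0.20, adjusted p = 3.97e-05). Of 23 myeloid genes mmp9 (0.70) and ncf1 (0.66) were higher (8.7%, against 4.37% of all tested genes). The gene mfap4 was lower at -1.15 (4.35%, against 9.39%), and none of these was stable.

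The fibrillar collagen genes col11a2 and col2a1a, of notochord and cartilage, were lower and stable. The gene col11a2 had 71.0, 9.06 and 14.8 CPM in DM and 130, 20.7 and 45.6 CPM in siblings (-1.20, SE 0.17, adjusted p = 6.5e-05), and col2a1a fell by 0.98 (adjusted p = 0.00122). Libraries numbered 1 were far above the others in both groups. Of 26 notochord genes 6 were lower (23.1%, against 9.39% of all tested genes) and 1 higher (3.85%, against 4.37%). The higher one was cav1, a gene of membrane pits (0.66, adjusted p = 0.00799; 0.229 without pair 1). The sum of the 3 notochord markers found was 299, 209 and 192 CPM in DM and 275, 203 and 177 CPM in siblings. This sum did not fall, although shha, which is part of it, was called lower. Outside the list the notochord gene ngs had 32.7, 15.5 and 20.3 CPM in DM and 75.0, 39.4 and 64.6 CPM in siblings, apart (-1.40, SE 0.16, adjusted p = 1.98e-06).

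In the endocrine pancreas the hormone gene gcgb (glucagon) was higher, with 3.58, 3.11 and 6.81 CPM in DM and 0.401, 0.692 and 2.01 CPM in siblings. Every DM library lay above every sibling library (2.25, SE 0.31, adjusted p = 4.35e-05). Insulin transcripts (ins) rose by 0.75 (adjusted p = 0.031; 0.13 without pair 1), whereas the endocrine and neuronal factors insm1a (-0.79) and insm1b (-0.88) were lower and stable. The pancreas and endoderm list thus had 2 of 21 tested genes higher (9.52%, against 4.37% of all tested genes). It had 2 lower (9.52%, near the 9.39% of all tested genes). The remaining 17 were not called.

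The hatching gland, which secretes the enzymes that soften the egg coat, had 4 of 10 genes higher (40%, against 4.37% of all tested genes) and 0 lower, with a median of 0.46. The protease gene he1b had 384, 1083 and 1510 CPM in DM and 314, 621 and 738 CPM in siblings. Levels were lowest in libraries numbered 1 of both groups (0.71, SE 0.17, adjusted p = 0.00904; 0.114 without pair 1). The others were tmprss4a (0.61) and both genes named ctslb (ENSDARG00000074306 and ENSDARG00000039173, each 0.54), near-identical copies between which counted reads may have been divided. None of the 4 was stable. Skin had 6 of 38 higher (15.8%, against 4.37% of all tested genes), by 0.48 to 0.62, among them anxa1b and epcam. The 2 keratin genes krt91 (-0.64) and krt1-19d (-0.62) were lower (5.26%, against 9.39%), and again none was stable. Of 20 tested ionocyte genes 2 were higher (10.0%, against 4.37%), gcm2 (0.65) and rhbg (0.56). Another 2 were lower (10.0%, near the 9.39% of all tested genes), the calcium handling genes trpv6 (-1.17) and slc8a1b (-1.18). All 4 lost the call without pair 1 (adjusted p 0.0902, 0.252, 0.0601 and 0.0786). The markers of the hatching gland summed to 1520, 3260 and 4200 CPM in DM and to 1340, 2220 and 2130 CPM in siblings, and those of skin to 21600, 30700 and 27600 CPM in DM and 20000, 23500 and 21600 CPM in siblings. The part of such tissue shares in the results was not tested.

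Lists of stress and general metabolism varied. None of 30 tested genes of endoplasmic reticulum stress and secretion and none of 15 germline genes was called. Of 35 proteasome genes psmd1 was lower (-0.70), 2.86% of the list against 9.39% of all tested genes, and 0 were higher. The median was 0.23, or 0.11 with the span trend removed, and 30 had a positive fold change before removal. The median span of the list was 11.7 kb. Tested genes of similar span (median 11.4 kb) had a median log2 fold change of 0.132. In the circadian list per1b (-0.70, stable), nfil3-5 (-0.51) and per3 (-0.47) were lower of 38 tested (7.89%, against 9.39% of all tested genes). Among 35 amino acid starvation genes 6 were lower (17.1%, against 9.39%), with aldh18a1 of proline synthesis (-0.89) and the amino acid carrier gene slc7a5 (-0.82) stable. The stress-induced gene ddit4 was higher (0.52), 2.86% of the list against 4.37%. Among cholesterol genes the regulators srebf1 (-0.68) and srebf2 (-0.52) were lower of 27 (7.41%, against 9.39%), and no enzyme gene was called. Motile cilia genes had 3 of 31 lower, near the background share.

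Genes for chromatin enzymes were lower in number. Of 51 Polycomb, Trithorax and histone demethylase genes 15 were lower (29.4%, against 9.39% of all tested genes), by 0.48 to 0.75. None was higher (against 4.37%), none was stable, and 7 stayed lower with the span trend removed. The largest was kdm6bb, an H3K27 demethylase gene, with 48.0, 32.9 and 35.6 CPM in DM and 75.1, 45.3 and 77.9 CPM in siblings (-0.75, SE 0.16, adjusted p = 0.0044; 0.0939 without pair 1). Its groups overlapped.

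A pair of further lists was drawn up after the calls were seen, so their counts describe and test nothing. Of 44 chromatin remodeller genes 27 were lower (61.4%, against 9.39% of all tested genes) and 0 higher (against 4.37%), and 17 were stable. The median was -0.71, or -0.57 with the span trend removed. The lower ones included chd9, chd7, chd8, arid2, baz1a (ENSDARG00000099745) and hcfc1b (-0.84 to -1.01). For chd9 DM had 40.1, 25.8 and 25.4 CPM and siblings 71.6, 42.3 and 64.6 CPM, without overlap (-0.96, SE 0.16, adjusted p = 0.000461). Of 41 nuclear pore and transport genes 22 were lower (53.7%, against 9.39%) and 0 higher (against 4.37%), 9 of them stable, with a median of -0.48. For nup205, a scaffold nucleoporin gene, DM had 101, 41.4 and 39.7 CPM and siblings 159, 68.8 and 122 CPM, which overlapped (-1.0, SE 0.18, adjusted p = 0.000955). Both lists were lowest in pair 3, where their medians were -1.16 and -0.89, against -0.44 and -0.38 in pair 1 and -0.49 and -0.36 in pair 2.

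A tandem cluster of MFAP4 family genes, which encode fibrinogen-related secreted proteins, was also singled out after its values were seen. It covers 78.0 kb of chromosome 1 (positions 58287407–58365385). Of 13 family genes counted, 7 were tested, and 4 were higher and 2 lower. ENSDARG00000093877 had 14.6, 28.2 and 35.4 CPM in DM and 5.67, 9.07 and 8.13 CPM in siblings, apart (1.71, SE 0.17, adjusted p = 2.8e-07). ENSDARG00000088745 went the other way, with 0.0761, 0.259 and 0.454 CPM in DM and 0.917, 2.00 and 2.85 CPM in siblings (-2.86, SE 0.48, adjusted p = 0.000535), the DM values lying near or below the limit for a count of 0. ENSDARG00000092806 (1.45), ENSDARG00000095746 (1.19) and ENSDARG00000094408 (0.94) were higher, mfap4 was lower (-1.15) and ENSDARG00000090557 was not called (0.12, adjusted p = 0.73). Members of such a family are alike and some overlap, so the division of reads among them is uncertain.

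The size of the difference followed gene span, the distance between the start and end of a gene in the table. In 10 equal bins of the tested genes ordered by span, the median log2 fold change was 0.235 in the bin of shortest genes (median span 2.63 kb) and -0.256 in that of the longest (139 kb). In the shortest bin 8.91% of genes were called higher and 4.65% lower, against 1.63% higher and 18.9% lower in the longest. Genes called higher had a median span of 9.47 kb, genes called lower 39.2 kb, and all tested genes 17.8 kb. Across genes, which are not independent replicates, Spearman's rho between fold change and span was -0.376 (Pearson's r with log2 span -0.327). It was -0.285, -0.214 and -0.396 within pairs 1 to 3.

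Single libraries carried such trends whatever their group. The correlation across genes between the deviation of a library from the mean and log2 span was 0.317, -0.368 and -0.336 in DM libraries 1 to 3 and 0.391, -0.313 and 0.248 in sibling libraries 1 to 3. The sign was shared by equally numbered libraries for numbers 1 and 2 and differed for number 3. With a smooth trend of each library removed, rho was -0.00834, a value near 0 that the removal itself brings about. Then 890 genes were called higher (4.99%) and 1434 lower (8.04%), 1563 of them called in the same direction as before. In those calls 2.86% of the shortest bin were higher and 9.42% lower, against 8.08% higher and 6.51% lower in the longest. Stable genes, which also had to pass the fit with the trend left in, had a median span of 8.98 kb for those higher and 40 kb for those lower. The median of the axon guidance list moved to -0.19 with the trend removed, against -0.41 before, and that of the fin fold list to -0.03, against -0.31, while those of the lens (-1.89, against -1.70) and eye field lists (-0.81, against -0.64) moved away from 0. Counts of calls moved as well: with the trend removed 2 hatching gland genes and 3 skin genes were higher, and 8 forebrain inhibitory neuron genes, 7 otic genes and 4 pancreas and endoderm genes were lower. Whether span or another property that goes with it sets the trend was not tested.

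**Figure D4:**
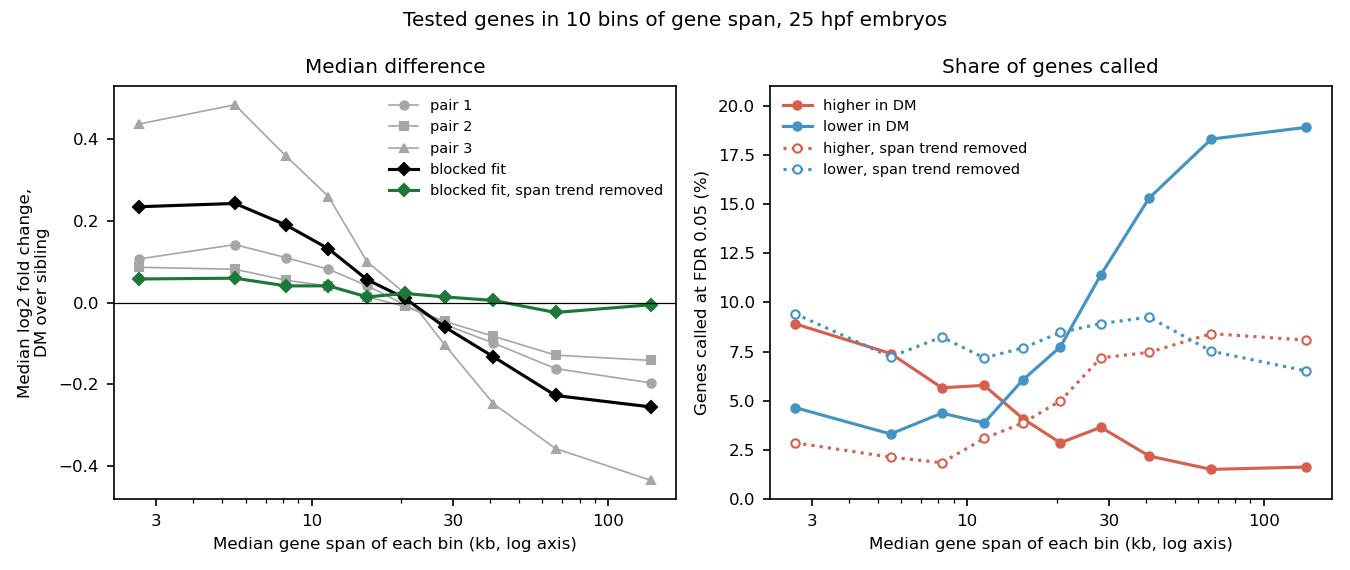
Median log2 fold change, DM over sibling (left), and share of genes called (right) in 10 bins of the tested genes by gene span (kb, log axis). The median is above 0 in short genes and below 0 in long genes in each pair and in the blocked fit (0.235 in the shortest bin, -0.256 in the longest). It is nearly flat once the trend is removed, which the removal itself brings about.

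Genes near the mutated loci were looked at because DM embryos may all carry the same chromosome segment around each mutation. Within 5 Mb of tet2 on chromosome 1, 9 of 122 tested genes were called (7.38%, Wilson 95% interval 3.93% to 13.4%), and within 5 Mb of tet3 on chromosome 5, 13 of 96 (13.5%, interval 8.09% to 21.8%). The 2 windows together gave 10.09% (interval 6.76% to 14.8%), against 13.8% of all tested genes. The intervals cover counting error only and treat genes as independent. Near tet2, 6 of the 9 calls were higher, and near tet3, 12 of the 13 were lower, while 31.8% of all calls were higher. Within 2 Mb, 5 of 48 tested genes near tet2 were called, all higher, and 7 of 49 near tet3, all lower. The median log2 fold change there was 0.244 near tet2 and -0.069 near tet3, against 0.0226 for all tested genes. The cause of these directions was not tested. By chromosome the share called lay between 9.17% on chromosome 4 and 16.7% on chromosome 9, and 0 of 13 mitochondrial genes were called.

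**Figure D5:**
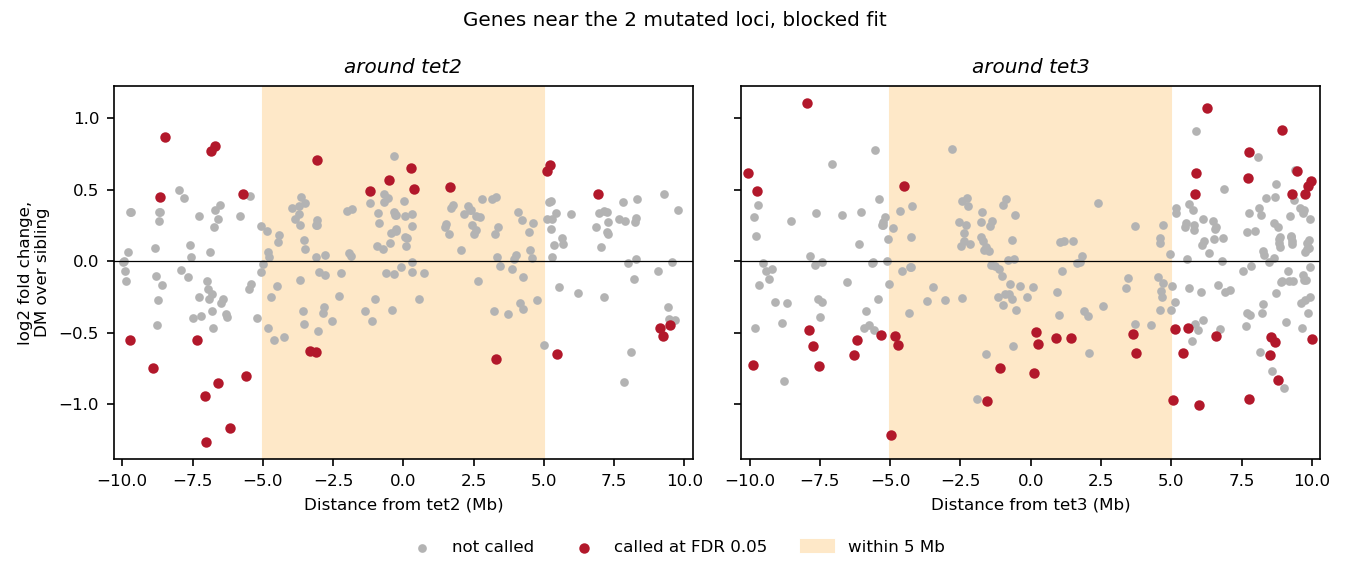
Log2 fold change, DM over sibling, of tested genes against their distance (Mb) from tet2 (left) and tet3 (right), with called genes in red and the 5 Mb window shaded. Within the windows 9 of 122 and 13 of 96 genes are called.

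The authors' deposited table for this comparison called 47 of 17950 genes with an adjusted p under 0.05 (0.262%), 11 higher and 36 lower. Of these, 43 were among the genes tested here, and all 43 were also called by the blocked test in these data. In the authors' deposited table ca9 had a log2 fold change of 1.63 (adjusted p = 8.15e-07), npas1 of -1.97 (adjusted p = 2.37e-09), gpm6aa of -1.42 (adjusted p = 9.82e-12) and wfikkn1 of -1.28 (adjusted p = 7.01e-05). For the same genes edgeR without the block gave 2.27, -2.91, -1.57 and -1.58. The tool and model behind the deposited values are not given in the sources used here, so they may not measure the same thing as the blocked values. The authors' deposited table did not call her3 (0.99, adjusted p = 0.0737), pax7a (-0.81, adjusted p = 0.579), slc4a1a (-0.62, adjusted p = 0.783) or gcgb (1.03, adjusted p = 0.115).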

How the data were processed

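RNA from whole 25 hpf zebrafish embryos was sequenced in 3 DM and 3 sibling libraries. The authors deposited raw counts per gene in a table that also holds gene coordinates and, per the file headers, a log2 fold change with a p-value and adjusted p-value of their own. The 6 columns of normalised values beside the counts were not used. STAR 2.3.0e, HTSeq 0.6.0 and the build GRCz10 appear in the submitters' processing notes with no role given, and whether counting used strand is not given in the sources used here.

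The deposited counts were filtered with filterByExpr and scaled by TMM. The quasi-likelihood test came from edgeR 4.0.16 (R 4.3.3), and p-values were adjusted over all tested genes by Benjamini-Hochberg to an FDR of 0.05. The fit without a block was the planned test. The fit with the replicate number as a block was used for calls because each of the 3 pairs had a correlation above 0.1 (the labels state no pairing, and DM 3 and sibling 2 had 0.512). Span trends were removed by lowess (span 0.3) of log2 CPM (prior count 2) on log2 span, through offsets. Each SE was derived as the size of the log2 fold change over the root of its F statistic. Alternatives were limma-voom (limma 3.58.1), DESeq2 1.42.0, other scalings, filters and thresholds, and pairs or libraries left out. The edgeR tests with the block, without it, and with the block and the span trend removed were first tried on simulated counts. The other tests were not. The counts were simulated from the blocked model, so they cannot show whether a block by number is right for these libraries.

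The named genes were tet1, tet2 and tet3, up to 20 stable genes per direction with a mean of at least 5 CPM and a proper symbol (crystallins, mipa, mipb and melanin genes left out), and the 4 members per list that had the lowest p. Called members outside this rule, such as those that complete small counts, were chosen after their values were seen. The 41 gene lists (2 more were added later; 1071 distinct genes tested of 1326 listed symbols) and the rules were chosen with earlier results of these data known. Lists share members. Some genes that the rule names are not reported here.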

Additional observations from a re-analysis of the deposited data

How the results depend on the processing

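The replicate block decided the number of calls: edgeR called 0 genes without it and 2453 with it. Without the block DESeq2 called 39, and edgeR called 0 to 2 when a library was left out (2 without sibling replicate 2). In the same fits limma-voom, other scalings, no filter and removal of the span trend called 0. With the block, DESeq2 called 1294, an FDR of 0.01 left 671 and a log2 fold change of at least 1 left 217. Leaving out a pair gave 513 to 3128 calls (513 without pair 1, 1214 without pair 2 and 3128 without pair 3). With the block, limma-voom, other scalings, no filter and removal of the span trend gave 2324 to 2977 calls. The correlation with span kept its sign in all 6 alternatives (-0.293 to -0.424). Near tet2 or tet3 the share called was 10.09%, and 15.18% within 10 Mb, against 13.8% of all tested genes. By DESeq2 with the block it was 5.56%, against 10.8% over all genes given an adjusted p. It was 0.459%, 4.59% and 16.1% without pairs 1, 2 and 3. The same fits called 513, 1214 and 3128 of all 17831 tested genes, so these shares move with the total number of calls. Of 195 genes given with a fold change, 185 were called, and the call was lost in 185 without the block (DESeq2 without it 169), in 87, 50 and 14 without pairs 1, 2 and 3, in 29 with the span trend removed and in 2 with limma-voom and the block. DESeq2 with the block gave an adjusted p for 145 of the 195 and lost 26 calls. Removal of the span trend gave a call to 6 that had none. The log2 fold change of ENSDARG00000090557, which was not called, turned to -0.013 with the span trend removed and lay between -0.24 and 0.26 with a pair left out. Medians of the 43 lists moved by more than their SD over pairs in 9 with the span trend removed, 1 without the block and 7, 7 and 5 without pairs 1, 2 and 3. Depth limits genes under about 1 CPM, such as lim2.4, and2 and ENSDARG00000088745.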
